A study of Homo sapiens with 20 samples.

Results

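CDC42 effector proteins, RhoBTB proteins and the formin INF2 were followed through the differentiation of HepaRG cells on 1-colour Agilent expression arrays. HepaRG is a human hepatoma line from a hepatocellular carcinoma, with bipotent progenitors that form hepatocyte-like and biliary-like cells. The set holds 9 genes, CDC42EP1 to CDC42EP5, RHOBTB1 to RHOBTB3 and INF2, chosen as the families of actin regulators that the study names. The study names CDC42EP1, RHOBTB1 and INF2 as lowered by DMSO on these same arrays. Their relatives were taken whatever their own values. Their RefSeq accessions match 11 of the 42405 probes on the array, against 19062 genes named in all. INF2 has 3 probes, each drawn from another transcript accession, and every other member has 1. All 11 probes were well above background on the 4 arrays of at least 1 condition and so passed the filter on dim probes.

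Cells were sampled at day 4 (D4) and day 15 (D15) without DMSO. They were sampled again at day 30, either without DMSO (D30-DMSO) or after culture with 2% DMSO from day 15 to day 30 (D30+DMSO). The last condition, D34+/-DMSO, was the D30+DMSO culture kept for 4 more days after DMSO was taken away. Each of the 5 conditions has 4 arrays, described by the submitters as independent experiments, and all conditions come from the 1 cell line in the same serum- and hydrocortisone-containing medium. HepaRG cultures hold hepatocyte-like and biliary-like cells together, so in these bulk samples fewer cells of a type and less RNA per cell cannot be told apart.

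CDC42 is a small GTPase that switches between a GDP-bound and a GTP-bound form and directs cell polarity and the building of actin filaments. The CDC42EP proteins, also called Borg proteins, bind the GTP-bound form through a CRIB motif and bind septins, which assemble into filaments next to actin. The RhoBTB proteins are atypical small GTPases that carry BTB domains and act as adaptors of CUL3 ubiquitin ligases. INF2 is a formin that both speeds the growth of actin filaments and severs them. Polarised hepatocytes keep a dense belt of actin around the bile canaliculus, the apical lumen between neighbouring cells.

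Promoter windows from RefSeq (GRCh38.p14) ran from 250 bases before to 50 bases after a transcription start. They were searched for 7 of the 9 genes, as 15 windows in all. Windows of CDC42EP5 and RHOBTB2 are not reported here, so counts over member windows leave out both genes. The windows below belong to the 3 genes whose probes fell with DMSO, and 5 of their 9 windows are shown. CDC42EP1 has 1 window. RHOBTB1 and INF2 have 4 each, of which the one with the most matches to GGGCGG is printed beside one with a match to another motif, and the arrays do not tell which start was used. Capitals mark matches, on either strand, to any motif searched. The first was the core of an SP/KLF site, GGGCGG. The TATA element was spelled TATAAA. The TEAD site was GGAATG, which reads CATTCC on the other strand. For AP-1 factors the letters were TGANTCA. The CArG box of serum response factor was searched as well. Neighbouring matches to GGGCGG can share letters, and matches to different motifs did not overlap in these windows.
CDC42EP1, chr22:37560230-37560529, plus strand: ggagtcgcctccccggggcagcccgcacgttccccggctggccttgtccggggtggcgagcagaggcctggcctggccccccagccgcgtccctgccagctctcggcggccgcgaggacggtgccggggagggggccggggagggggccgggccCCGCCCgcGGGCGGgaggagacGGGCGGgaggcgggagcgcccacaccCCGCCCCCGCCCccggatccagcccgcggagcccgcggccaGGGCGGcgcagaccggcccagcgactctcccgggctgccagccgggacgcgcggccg
RHOBTB1, chr10:60944136-60944435, minus strand: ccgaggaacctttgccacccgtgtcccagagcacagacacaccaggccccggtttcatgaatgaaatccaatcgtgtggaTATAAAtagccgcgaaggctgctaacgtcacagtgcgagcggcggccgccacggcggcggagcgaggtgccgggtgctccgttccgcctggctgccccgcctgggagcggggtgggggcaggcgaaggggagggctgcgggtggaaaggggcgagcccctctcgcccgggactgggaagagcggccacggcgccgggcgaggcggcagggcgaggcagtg
RHOBTB1, chr10:61001391-61001690, minus strand: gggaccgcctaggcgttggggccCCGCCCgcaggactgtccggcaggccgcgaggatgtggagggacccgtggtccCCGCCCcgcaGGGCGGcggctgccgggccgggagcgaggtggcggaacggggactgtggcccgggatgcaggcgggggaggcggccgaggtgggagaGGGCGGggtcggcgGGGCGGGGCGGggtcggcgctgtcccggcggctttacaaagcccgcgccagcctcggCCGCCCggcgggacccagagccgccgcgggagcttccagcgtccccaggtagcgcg
INF2, chr14:104688042-104688341, plus strand: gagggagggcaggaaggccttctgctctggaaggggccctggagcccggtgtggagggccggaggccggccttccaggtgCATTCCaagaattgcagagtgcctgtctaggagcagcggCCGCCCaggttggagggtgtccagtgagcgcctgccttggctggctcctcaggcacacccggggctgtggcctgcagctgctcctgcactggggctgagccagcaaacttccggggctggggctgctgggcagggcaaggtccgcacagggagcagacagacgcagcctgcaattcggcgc
INF2, chr14:104689368-104689667, plus strand: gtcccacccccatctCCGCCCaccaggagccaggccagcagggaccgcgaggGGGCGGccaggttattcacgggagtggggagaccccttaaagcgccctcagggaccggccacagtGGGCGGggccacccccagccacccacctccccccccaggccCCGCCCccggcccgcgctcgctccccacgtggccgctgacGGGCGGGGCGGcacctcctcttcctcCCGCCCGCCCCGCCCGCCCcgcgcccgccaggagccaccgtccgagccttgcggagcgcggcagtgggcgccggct

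The CDC42EP1 window was the richest in G and C of the 15, at 83.7%, against a median of 58.7% over the 35116 windows of the table. It held 6 matches to GGGCGG and none to the other motifs searched. GGGCGG occurred in 9 of the 15 member windows and in 45% of all windows. TATAAA occurred in 3 member windows, 2 of RHOBTB1 (1 of them printed) and 1 of RHOBTB3, and in 11.5% of all windows. Among the 15 member windows, GGAATG was found only in the INF2 window at chr14:104688042-104688341, and 14% of all windows hold it. TGANTCA was found in 1 further INF2 window, not printed, and in 7.71% of all windows. A CArG box was found in none of the 15 windows and in 1.29% of all. These are matches of letters, and none of them was measured as a bound site here.

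The arrays themselves were of similar quality. Between 57.0% and 71.2% of probes were well above background on an array, and the correlation between arrays of 1 condition lay between 0.955 and 0.992. Hybridisation used 4 slides in 2 scan sessions, and D30+DMSO lies on only 2 of the slides, so values within slides are given below. Hepatocyte markers were present: albumin, transthyretin and 4 more of 8 were well above background on all 20 arrays, and the summed level of the list had a median of 126548 intensity units at D4 and 935750 at D15. Of 6 biliary markers, KRT7, KRT19, SOX9 and ITGB4 were above background on all 20 arrays and EPCAM and CFTR on none. Levels below are processed signals scaled to a common 75th percentile of 370.2 intensity units, listed in the order of the replicate numbers. A probe was called when its adjusted p (limma, Benjamini-Hochberg over all 26538 probes that passed the filter) was below 0.005 and its change exceeded 2-fold.

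Addition of DMSO lowered 3 of the 11 probes, those of CDC42EP1, RHOBTB1 and INF2 (NM_032714), and raised none. Over all probes tested, 4.17% were called lower in the same comparison. CDC42EP1, RHOBTB1 and INF2 are the genes of the set that the study names as lowered by DMSO from these same arrays, so their calls here are not independent evidence of that direction. The median log2 fold change of the 11 probes was -0.54, against 0.03 over all probes. That median includes every probe of the genes so named, so it is not independent evidence of a shift of the set. Among the probes of the other members the changes ran from -0.54 (RHOBTB3) to 0.21 (CDC42EP3). The arrays of the 2 conditions did not overlap for 4 of the 11 probes, the called ones and RHOBTB3, against 24.6% of all probes.

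CDC42EP1, the member of the Borg family that was named by the study, gave signals of 9869, 8555, 9208 and 10466 without DMSO at day 30. With DMSO the 4 arrays gave 3615, 4499, 5682 and 4416. Every array with DMSO lay below every array without it, and the log2 fold change was -1.08 ± 0.17 (SE, n = 4 arrays per condition; limma adjusted p = 0.000158). Within the 2 slides that hold both conditions the log2 difference ran from -1.29 to -1.06. The call sits close to the 2-fold limit: without D30+DMSO replicate 1, the lowest array, the change was -0.97 and no longer counted as called, although its adjusted p was 0.000854. By the methods' t-test the adjusted p was 0.00675, also short of a call.

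RHOBTB1, an adaptor of CUL3 ligases, stood at 303, 308, 329.6 and 281 without DMSO at day 30. The D30+DMSO arrays gave 137, 142, 106 and 109.5. The conditions were far apart relative to their spread, with a log2 fold change of -1.31 ± 0.15 (SE, n = 4; limma adjusted p = 6.73e-06). The within-slide differences ran from -1.38 to -1.12. With normexp background correction, whose added offset shrinks changes of dim probes, the fall was -0.90 and the later rise on removal 0.88, both under the 2-fold limit.

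The INF2 probe drawn from NM_032714 changed most. It read 508, 559.7, 559.6 and 646 without DMSO, and 119, 141, 121 and 188 with it. The highest array with DMSO was thus well under the lowest without, at a log2 fold change of -2.02 ± 0.17 (SE, n = 4; limma adjusted p = 2.03e-07), or 4.05-fold lower. Its within-slide differences, from -2.10 to -1.97, were nearly equal.

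The other INF2 probes changed less. NM_022489 read 1016, 947, 1144 and 1409.7 without DMSO and 742, 638, 720.1 and 999 with it, a log2 fold change of -0.55 ± 0.20 (SE, limma adjusted p = 0.0607). NM_001031714 read 268, 262, 280.1 and 440.2 without DMSO and 178, 172, 207 and 283 with it, at -0.57 ± 0.24 (SE, limma adjusted p = 0.113). Neither passed the test, and for both probes the ranges of the 2 conditions overlapped. NM_022489 and NM_001031714 are long INF2 transcripts whose proteins differ at their C-terminal end, whereas NM_032714 is a short transcript whose protein lacks the formin domains. Where on each transcript a probe binds was not analysed here.

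Whether the INF2 probes changed unequally was tested on the log2 ratio of 2 probes within each array, a comparison chosen with the values above known. The ratio of NM_032714 to NM_022489 fell from -0.98 ± 0.16 (SD, n = 4) without DMSO to -2.45 ± 0.21 with it. The difference of -1.47 left no overlap between the arrays, and a 2-sided exact permutation test gave p = 0.0286, which is the lowest 4 arrays against 4 can reach (Benjamini-Hochberg adjusted over 4 such tests, 0.0286). Against NM_001031714 the ratio fell by 1.45 on the log2 scale, again with no overlap and the same exact permutation p of 0.0286. After removal of DMSO the ratios rose by 1.23 and 1.30, each with an exact permutation p of 0.0286. An unequal change between probes does not show that any of them was unchanged.

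**Figure D1:**
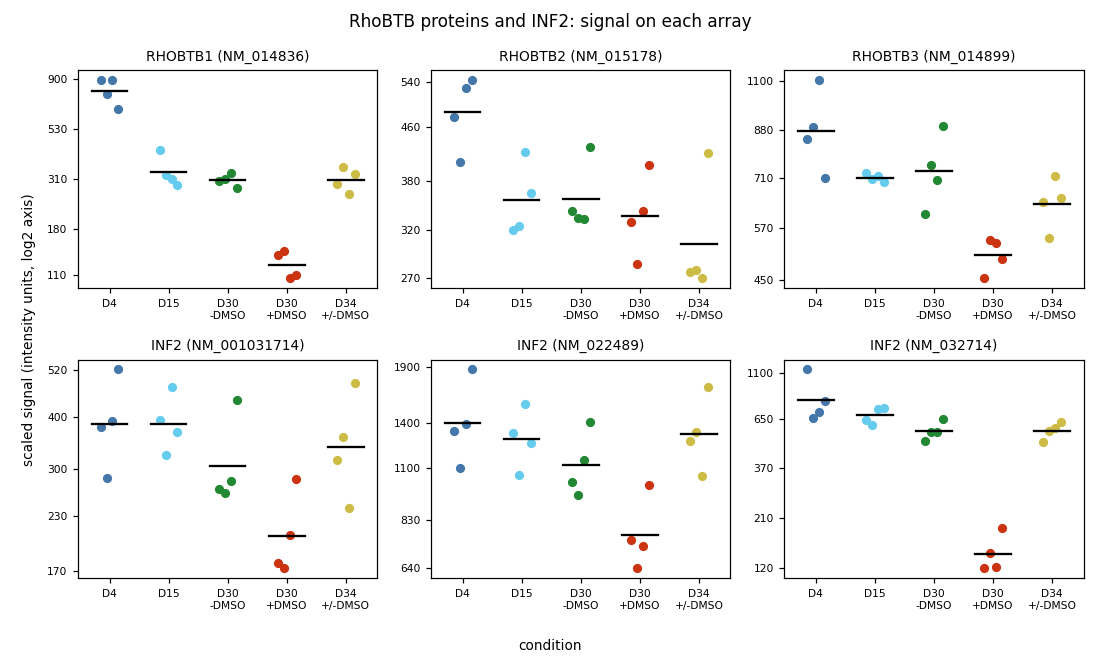
Scaled signal of the RhoBTB and INF2 probes on each of the 20 arrays, by condition; points are arrays, black bars are geometric means of 4 arrays, and each vertical axis is logarithmic with a range of its own. RHOBTB1 and INF2 (NM_032714) are lowest on the 4 D30+DMSO arrays, at 106 to 142 and 119 to 188, with no overlap with any other condition.

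RHOBTB3, which binds ATP and takes part in transport to the Golgi, read 605, 755, 704 and 897 without DMSO and 454, 539, 531 and 495 with it. All 4 DMSO arrays were lower, but the log2 fold change of -0.54 ± 0.14 (SE) did not pass the test (limma adjusted p = 0.0125). RHOBTB2, the nearest relative of RHOBTB1, read 332 to 429.9 without DMSO and 284 to 403 with it, at -0.09 ± 0.16 (SE, limma adjusted p = 0.815). Of the RhoBTB family, then, RHOBTB1 alone was called in this comparison; the difference between family members was not tested.

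CDC42EP2 to CDC42EP5 were not called either. Their log2 fold changes with DMSO were -0.35 for CDC42EP2 (95% interval -0.83 to 0.12), 0.21 for CDC42EP3 (-0.43 to 0.85), 0.20 for CDC42EP4 (-0.39 to 0.79) and 0.17 for CDC42EP5 (-0.34 to 0.69). These intervals still hold changes of up to 0.85 on the log2 scale, so they do not show that the genes were unaffected. CDC42EP5 gave signals between 31110.5 and 51894 on the 8 arrays and was not saturated on any. CDC42EP3 was the dimmest member, at 7.58 to 23.4, and was well above background on 3 of 4 arrays without DMSO and 1 of 4 with it.

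CDC42EP4 shows how far an array's slide went with its level. Its highest array in each of the 5 conditions was one on slide 4, at 557 in D4, 467 in D15, 619 in D30-DMSO, 705 in D30+DMSO and 537 in D34+/-DMSO. The same held for RHOBTB2 and for INF2 (NM_022489 and NM_001031714), and in 4 of 5 conditions for CDC42EP1, CDC42EP2, CDC42EP3 and INF2 (NM_032714). It held in 2 conditions for CDC42EP5, in 1 for RHOBTB3 and in none for RHOBTB1. Slide 4 was read in the second scan session and carries 1 array of D4, D30-DMSO and D34+/-DMSO and 2 arrays of D15 and D30+DMSO. The part of the slide in these levels was not tested. With slide or scan session as a block, CDC42EP4 was still not called in any comparison.

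**Figure D2:**
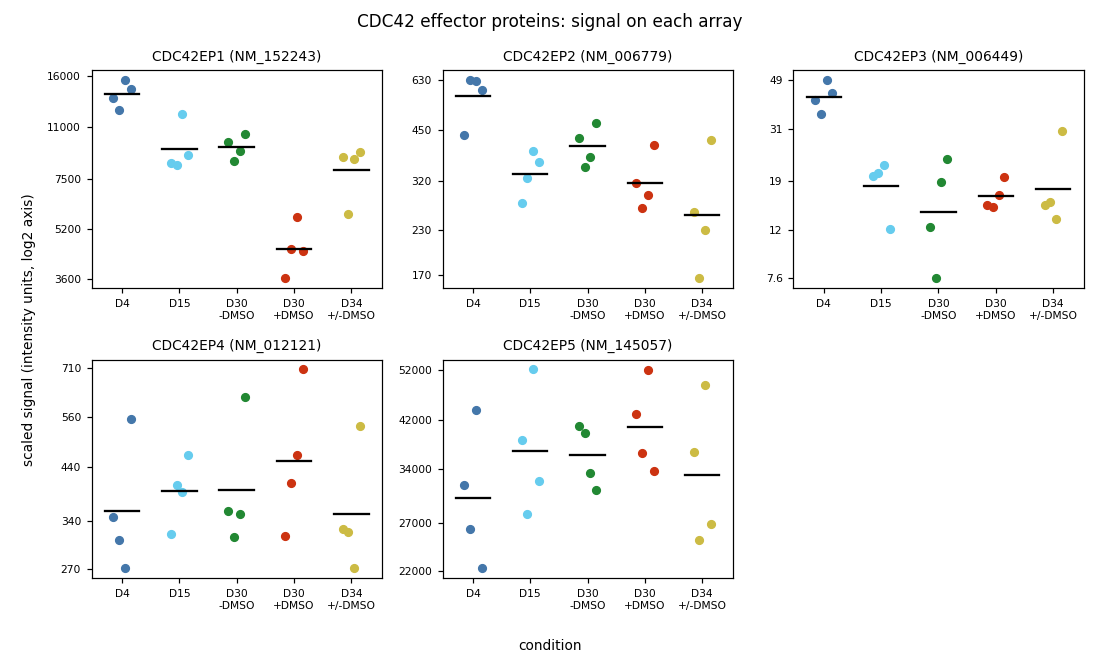
Scaled signal of the CDC42 effector protein probes on each of the 20 arrays, by condition; points are arrays, black bars are geometric means of 4 arrays, and each vertical axis is logarithmic with a range of its own. CDC42EP1 falls to 3615 to 5682 with DMSO, whereas the D30-DMSO and D30+DMSO points overlap for the other 4 genes.

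Cell type markers moved on this step too. The summed level of the 8 hepatocyte markers ran from 906329 to 955965 in D30-DMSO and from 1030000 to 1756070 in D30+DMSO. In D34+/-DMSO it ran from 865729 to 1096390, and none of the 8 was called on addition or removal. Of 6 fibroblast and stellate cell markers, COL1A2 and PDGFRB were well above background on none of the 20 arrays and THY1 on 1, while COL1A1 and decorin (DCN) were on all 20 and COL3A1 on 11. The summed level of the list ran from 2792 to 7037 in D30-DMSO, from 369 to 687 in D30+DMSO and from 2620.2 to 7044 in D34+/-DMSO. DCN supplied most of it, with a median level of 3588 over the 20 arrays against 70.2 for COL1A1, and the log2 fold change of DCN with DMSO was -2.98 on its first probe. The leukocyte list, whose brightest gene CD14 is also made by hepatocytes, ran from 4338 to 5334, from 3154 to 3798 and from 2707 to 3685 in the same conditions. Of the biliary markers, ITGB4, an integrin subunit, was called lower with DMSO (-2.00), higher on removal (2.07) and lower from D4 to D15 (-1.87), the comparisons in which RHOBTB1 was called and with the same signs. SOX9, a transcription factor of biliary cells, was called the other way, at 1.30 on addition and -2.07 on removal, and KRT7 and KRT19 were not called. The summed level of the biliary list ran from 69874 to 76132 in D30-DMSO, from 55287 to 82904 in D30+DMSO and from 56538 to 87371 in D34+/-DMSO. The part of any of those cells, or of DCN-expressing cells of any kind, in the change of CDC42EP1, RHOBTB1 and INF2 was not tested.

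Removal of DMSO raised 2 of the 11 probes, RHOBTB1 and INF2 (NM_032714), and lowered none. Over all probes 5.07% were called higher. The comparison uses the same 4 D30+DMSO arrays as the addition of DMSO, so these comparisons are not independent, and a low reading in those arrays would enter both. The ranges of the 2 conditions did not overlap for 5 of the 11 probes, against 23% of all probes, and the median log2 fold change of the 11 was 0.33 against -0.04 over all. This median also includes every probe of CDC42EP1, RHOBTB1 and INF2, the genes that the study names. Probes of the other members ran from -0.37 (CDC42EP4) to 0.33 (RHOBTB3).

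RHOBTB1 read 293, 351, 261 and 326 at D34+/-DMSO, each above the highest D30+DMSO array. Its log2 fold change on removal was 1.32 ± 0.15 (SE, limma adjusted p = 4.53e-06), and 0.99 to 1.60 within slides. INF2 (NM_032714) read 503, 568, 585 and 627, a rise of 2.02 ± 0.17 (SE, limma adjusted p = 1.36e-07), and 2.05 to 2.07 within slides. The size of both rises was close to that of the falls with DMSO.

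CDC42EP1 read 8812, 5821, 8711 and 9152 at D34+/-DMSO. All 4 arrays were above the D30+DMSO arrays, although replicate 2 exceeded the highest of them by little. The log2 fold change of 0.83 ± 0.17 (SE) had a limma adjusted p of 0.00146 and stayed under the 2-fold limit, so it was not called. INF2 (NM_022489) read 1271, 1335, 1051 and 1705, at 0.79 ± 0.20 (SE, limma adjusted p = 0.00633), and INF2 (NM_001031714) read 314, 358, 241 and 486, at 0.72 ± 0.24 (SE, limma adjusted p = 0.0365). Neither was called. RHOBTB3 read 639, 544, 717 and 649.9, none of which overlapped the D30+DMSO range, at 0.33 ± 0.14 (SE, limma adjusted p = 0.118). The remaining members, CDC42EP2 to CDC42EP5 and RHOBTB2, had log2 fold changes between -0.37 and 0.09, and none was called.

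The cells freed of DMSO were also set against those that never met it. No member probe was called between D34+/-DMSO and D30-DMSO, where 1.46% of all probes were, and none was free of overlap, against 11.5% of all. This is a comparison across days 30 and 34 and shares arrays with those above. RHOBTB1 differed by 0.00 on the log2 scale (95% interval -0.32 to 0.33) and INF2 (NM_032714) by 0.01 (-0.36 to 0.37). CDC42EP1 differed by -0.25 (-0.61 to 0.11). The widest departure was CDC42EP2, at 259, 166, 230.2 and 419 against 426, 352, 375 and 471, a log2 fold change of -0.67 ± 0.22 (SE, limma adjusted p = 0.116). The summed level of 6 proliferation markers ran from 1326 to 2424 in D30-DMSO, from 678 to 2110.0 in D30+DMSO and from 7549.9 to 22098 in D34+/-DMSO. On removal of DMSO all 6 were called higher, with a median log2 fold change of 2.94 over their 9 probes, in the comparison in which RHOBTB1 and INF2 (NM_032714) rose. Their part in those rises was not tested.

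**Figure D3:**
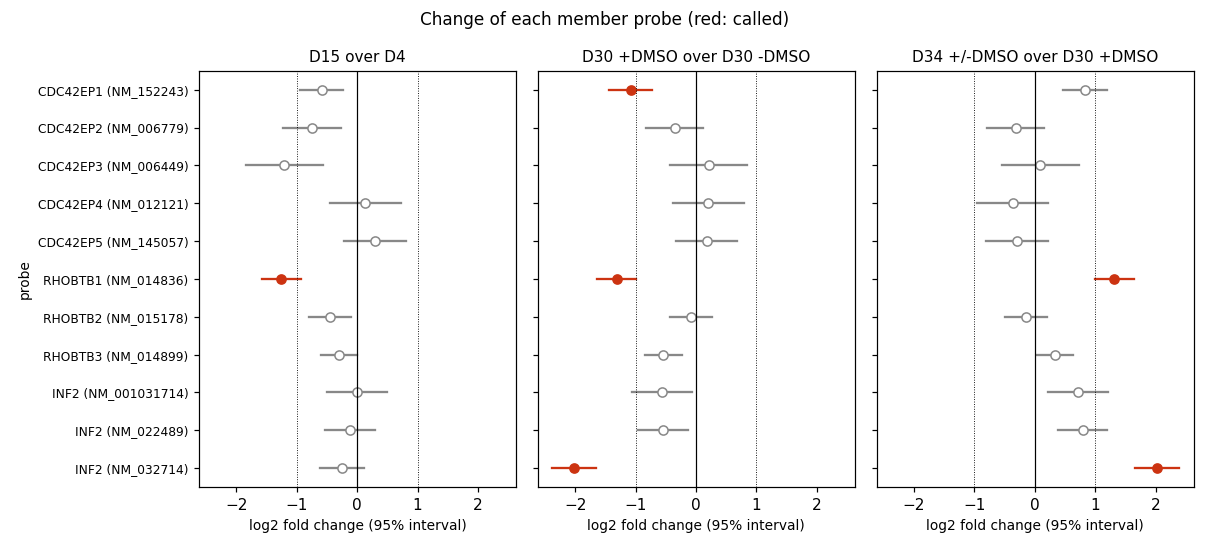
Log2 fold change of each member probe with its 95% interval (limma) from D4 to D15, on addition of DMSO and on its removal; filled red marks the called probes, and dotted lines stand at a 2-fold change. RHOBTB1 is the only probe called in all 3 comparisons, at -1.26, -1.31 and 1.32.

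Between D4 and D15, 1 of the 11 probes was called lower and none higher, with 3.78% of all probes called lower. RHOBTB1 fell from 894, 765, 897 and 652 to 423, 323, 308 and 291, a log2 fold change of -1.26 ± 0.15 (SE, limma adjusted p = 4.96e-06). The ranges were separate, and the within-slide differences ran from -1.47 to -1.08. Ranges were also separate for CDC42EP1, CDC42EP2 and CDC42EP3, making 4 of the 11 probes against 24.1% of all. CDC42EP3 is counted here although it passed the filter only through its D4 arrays.

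CDC42EP3 read 40.7, 35.4, 49.1 and 43.5 at D4 and 19.9, 20.4, 22.0 and 12.1 at D15. It was well above background on all 4 arrays at D4 and on 2 at D15. D4, where it was highest, was the only condition that let it pass the filter. Its fall from D4 is therefore not independent of that selection. The log2 fold change of CDC42EP3 was -1.21 ± 0.30 (SE, limma adjusted p = 0.00617) and was not called. With slide, scan session or the replicate number as a block it was called, after the same filter. CDC42EP2 went from 434, 631, 627 and 589 to 275, 326, 390.3 and 362, at -0.75 ± 0.22 (SE, limma adjusted p = 0.0199). CDC42EP1 went from 13627, 12473, 15569 and 14554 to 8441, 8332, 12072 and 8929, at -0.59 ± 0.17 (SE, limma adjusted p = 0.0163). Neither passed. The other probes had log2 fold changes between -0.45 (RHOBTB2) and 0.29 (CDC42EP5).

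Proliferation markers moved along this step too. Their summed level ran from 9305 to 13299 at D4 and from 834 to 2184 at D15, and the fibroblast and stellate list from 6042 to 11520.2 and from 2853 to 5423. All 8 hepatocyte markers were called higher from D4 to D15. The part of these lists in the fall of RHOBTB1 was not tested.

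From D15 to day 30 without DMSO no change in the set was detected. No member probe was called between D15 and D30-DMSO, where 0.00377% of all probes were, and no ranges were separate, against 2.17% of all. Log2 fold changes ran from -0.35 for CDC42EP3 to 0.27 for CDC42EP2, and the 95% interval for RHOBTB1 was -0.45 to 0.20.

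Over all 5 conditions, 2 of the 11 probes passed the F-test (limma, a Bonferroni-adjusted p under 0.001 with highest and lowest condition means over 3-fold apart), as did 4.98% of all probes. RHOBTB1 spanned 6.48-fold (Bonferroni-adjusted p = 9.32e-07) and INF2 (NM_032714) 5.77-fold (Bonferroni-adjusted p = 2.95e-06). Both had their highest mean at D4 and their lowest in D30+DMSO. For INF2 (NM_032714) the D4 arrays, at 661 to 1141, overlapped those of D15, at 604 to 739. Its change from D4 to D15 was not called (-0.25, limma adjusted p = 0.348). Of the 3 conditions between, D15, D34+/-DMSO and D30-DMSO in that order for both probes, the arrays overlapped. CDC42EP1 spanned 3.12-fold without passing (Bonferroni-adjusted p = 0.0112), although it passed with normexp background correction (Bonferroni-adjusted p = 0.00041). CDC42EP4 and CDC42EP5 varied least, at 1.29-fold and 1.35-fold, and were the only members whose highest mean was in D30+DMSO.

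How the members varied together is described over the 20 arrays, which share slides and scaling and fall into 5 conditions, so no test is given. CDC42EP1 had a Pearson correlation of 0.87 with RHOBTB1, 0.87 with INF2 (NM_032714) and 0.88 with RHOBTB3. RHOBTB1 and INF2 (NM_032714) correlated at 0.85. The INF2 probes drawn from NM_022489 and NM_001031714 correlated at 0.97 with each other. With the NM_032714 probe they correlated at 0.82 (NM_022489) and 0.78 (NM_001031714). CDC42EP2 and RHOBTB2 correlated at 0.87. CDC42EP5 correlated below 0 with every other member, from -0.44 to -0.11. Among all genes that passed the filter, those most like RHOBTB1 were BNC2 (0.98), a zinc finger protein, and ALOX5 (0.98), the 5-lipoxygenase. Those most like INF2, taken by its brightest probe (NM_022489), were EHBP1L1 (0.94) and MAP3K6 (0.93). That probe did not itself pass the F-test, and the genes most like NM_032714 were not searched for.

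CDC42 itself was not called in any comparison on any of its 3 probes. On addition of DMSO they changed by -0.10, 0.09 and 0.26 on the log2 scale, with limma adjusted p from 0.752 to 0.799.

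Few of the known partners of the members were called. None of the 18 other CDC42 effectors tested was called on addition of DMSO, with a median log2 fold change of 0.08 over their 20 probes. On removal IQGAP3 rose by 2.80. From D4 to D15 the polarity protein PARD6B rose by 1.09 and its relative PARD6G fell by 1.48. Of 10 septins, the filament proteins that CDC42EP proteins bind, SEPTIN5 was called lower with DMSO on both of its probes (-2.02 and -1.08) and higher on removal (2.74 and 1.66). From D4 to D15 SEPTIN11 fell by 1.32 and SEPTIN4 rose by 1.02. None of the 5 CUL3 ligase genes, the partners of RhoBTB proteins, was called in any comparison.

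Of the 10 other formins tested, none was called on addition of DMSO, with a median of -0.29 over 13 probes. DIAPH3, a formin that drives long actin filaments, rose on removal by 2.25 and 3.29 on its probes, after it fell by 2.37 and fell by 2.79 from D4 to D15. It was also higher in D34+/-DMSO than in D30-DMSO (2.01 and 2.66), where FHOD3 was lower (-1.23). Of the 6 proliferation markers, all 6 were called lower from D4 to D15 and higher on removal. In D34+/-DMSO against D30-DMSO 5 of the 6 were called higher. Their part in the changes of DIAPH3 and IQGAP3 was not tested. The medians over all 26538 probes were 0.03 on addition and -0.04 on removal.

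**Figure D4:**
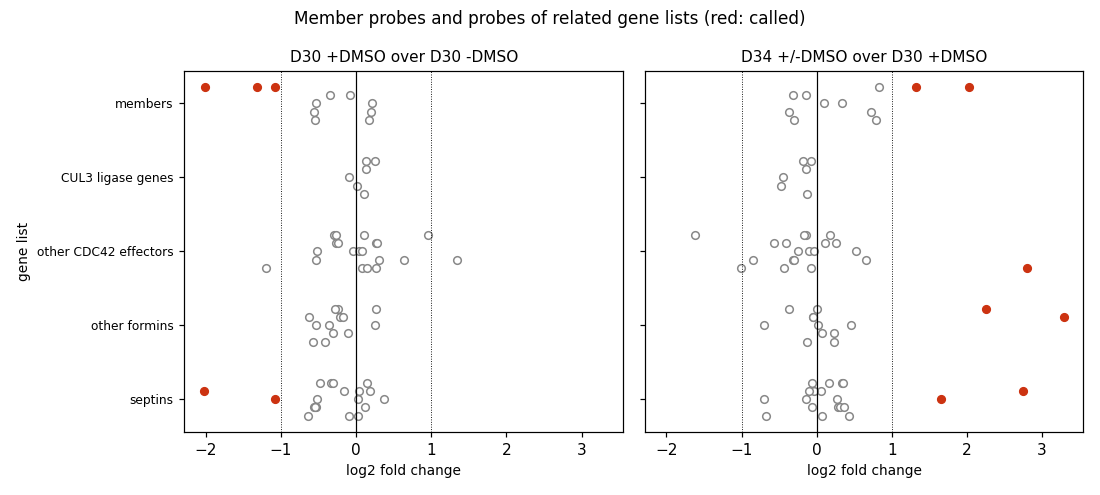
Log2 fold change of every probe of the set and of 4 related gene lists on addition of DMSO and on its removal; each point is a probe, filled red marks the called ones, dotted lines stand at a 2-fold change, and vertical offsets only separate the points. On addition the red points are all on the left, RHOBTB1, CDC42EP1 and INF2 among the members and both SEPTIN5 probes in the lists; on removal they are all on the right.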

How the data were processed

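RNA of HepaRG cells was hybridised to 20 Agilent 1-colour arrays, 4 for each of 5 conditions, with groups taken from the sample titles. The authors deposited Feature Extraction files (version 10.7.3.1 in the submitters' processing notes, 10.7.1.1 in the file headers), whose processed signal is a background-subtracted intensity, and a matrix of log2 values, whose further treatment is not given in the sources used here. The log2 matrix served only as an alternative.

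Control spots and spots marked by the software as outliers were left out, spots of 1 probe were averaged, and each array was scaled so that its 75th percentile over probes, 283 to 526 intensity units as deposited, matched their median. Values were floored at 1 and taken to log2. A probe was kept when some condition had all 4 of its arrays well above background (26538 of 42405 probes). RefSeq accessions gave 24826 probes a symbol. limma 3.58.1 (R 4.3.3, data.table version 1.17.8) fitted 1 mean per condition over all 20 arrays. The thresholds, adjusted p below 0.005 with more than 2-fold and Bonferroni-adjusted p below 0.001 with more than 3-fold, follow the study's methods, which used a t-test and analysis of variance. The fit was tested on simulated data whose noise was independent between arrays, without slide effects. That test could not show how shared deviations within a slide affect the adjusted p. The number of arrays limits the precision.

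The members, gene lists and comparisons were chosen with earlier results of these data known. Members are named with every probe. Of other genes, those called are named, at most 4 per list and comparison, and the 2 most correlated with each member called by the F-test. Samples on 1 slide deviated together (median r = 0.37 over 44 pairs of arrays from different conditions) and those on other slides did not (-0.17 over 116 pairs). Alternatives covered normalisation, background, filter, floor, blocks, threshold, test and single arrays. Promoter letters came from RefSeq (GRCh38.p14). Probe sequences and protein sequences were not used here. Further gene lists that were fitted are not reported here.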

Additional observations from a re-analysis of the deposited data

Results flagged for a closer look

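In 5 of 55 groups of 4 arrays (11 probes in 5 conditions) 1 array stood apart, its gap to the nearest array divided by the range of the group exceeding the 95% critical value of Dixon's test. Chance alone marks about 1 group in 20. CDC42EP1 was low on replicate 2 of D34+/-DMSO, at 5821 intensity units (ratio 0.891). CDC42EP3 was low on replicate 4 of D15, at 12.1 (ratio 0.832). RHOBTB2 was high on replicate 4 of D30-DMSO, at 429.9 (ratio 0.888), and on replicate 4 of D34+/-DMSO, at 419.7 (ratio 0.936). INF2 (NM_001031714) was high on replicate 4 of D30-DMSO, at 440.2 (ratio 0.871). The arrays with replicate number 4 all lie on slide 4. Leaving out any of these arrays changed no call of a member on addition or removal of DMSO. Leaving out D30-DMSO replicate 4 or D34+/-DMSO replicate 4 brought CDC42EP3 past the threshold from D4 to D15 (adjusted p 0.00334 and 0.00265), through the shared estimate of the spread.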

How the results depend on the processing

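No called value changed direction under any alternative. From D4 to D15 the count of called member probes rose from 1 to 2, CDC42EP3 joining RHOBTB1, with a floor of 10, with slide or scan session as a block, with the replicate block (2 called), at an adjusted p below 0.05 and in a fit of only the 8 arrays compared. Leaving out 1 array at a time gave 1 to 2, with 2 without D30-DMSO replicate 2, D30-DMSO replicate 4 or D34+/-DMSO replicate 4. On addition of DMSO the 3 calls were 2 to 3 with 1 array left out, and 2 under normexp background correction, where RHOBTB1 was at -0.90, under the methods' t-test, where CDC42EP1 had an adjusted p of 0.00675, and with 1 probe per gene, which keeps the brightest INF2 probe (NM_022489) and so loses the INF2 call. On removal the 2 calls became 1 under normexp, where RHOBTB1 was at 0.88, and 1 with 1 probe per gene. The F-test count of 2 became 1 with 1 probe per gene and 3, with CDC42EP1 added, under normexp and at an adjusted p below 0.05. Normexp adds an offset of 50 to every spot, which by construction shrinks changes of dim probes. Over all probes, calls on addition ranged from 623 (the methods' t-test) to 2029 (adjusted p below 0.05) around 1552. With 1 array left out the count was 2 throughout on removal and for the F-test, and 0 in both remaining comparisons. Of 1653 alternative values of uncalled probes, 43 changed sign. The 75th percentile over spots was added after seeing the data and changed no count of calls. The labels do not say whether replicate numbers pair the samples. In no comparison did all 4 same-numbered pairs correlate above 0.1, although 3 did in 3 comparisons and 5 of 8 arrays correlated best with their own number in 2, so the numbers were not treated as pairs and pairing was not settled. With the replicate block the DMSO counts stayed at 3 and 2. CDC42EP3 was limited by its signal, well above background on 12 of 20 arrays. It passed the filter only through D4, so its calls from D4 to D15 share that selection.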
